A study of Sus scrofa with 8 samples.

Results

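Isolated intragenic H3K27ac peaks are single acetylated regions inside the bodies of protein-coding genes, away from gene starts, from H3K4me3 and from CTCF. They were taken from the H3K27ac peaks of replicate 1 on chromosomes 1 to 18 and X in pig embryonic fibroblasts (PEFs). Of 74983 peaks, 74448 lay on these chromosomes, and 64325 overlapped an H3K27ac peak of replicate 2 and are called shared here. Of the shared peaks, 32921 overlapped no H3K4me3 peak of either replicate, 29542 also overlapped no CTCF peak, and 28379 of these lay more than 2.5 kb from every gene start. For 10991, no other peak that met all these conditions lay within 12500 bp, and 6394 of them had their summit in a protein-coding gene. These 6394 members made up 9.94% of the shared peaks. They were chosen by the presence and position of H3K27ac, H3K4me3 and CTCF peaks, so their H3K27ac values and their distances from the other marks are given as a description. The other isolated peaks comprised 3744 outside any gene, called isolated intergenic, and 853 in genes of other kinds. A further 11309 peaks met the same conditions inside protein-coding genes but had such a neighbour within 12500 bp, and are called clustered intragenic. Shared peaks at promoters or under H3K4me3 or CTCF did not end the isolation of a member, and 2957 members (46.2%) were also isolated from every shared H3K27ac peak of any kind.

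ChIP-seq, in which DNA bound to a chosen protein is pulled down with an antibody and sequenced, was carried out for H3K4me3, H3K27ac and CTCF with 2 replicates each, giving 6 peak lists. All came from one kind of cell, untreated PEFs isolated from fetuses of Large White pigs at 35 days and cultured for 24 hours. The labels do not say whether the replicates came from separate animals or cultures. The comparisons below are therefore between classes of regions and of genes in one cell type.

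H3K27ac is acetylation of lysine on the tail of histone H3, and is found on nucleosomes at active promoters and enhancers. Enhancers are short stretches of DNA where transcription factors bind, and many lie in introns, where they can act on the gene that holds them or on another gene. H3K4me3 marks promoters, and CTCF is a DNA-binding protein at insulators and loop anchors. AP-1, a dimer of FOS and JUN family proteins, is known for binding at fibroblast enhancers, as are TEAD factors, which carry YAP and TAZ to DNA, and RUNX factors.

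The sequences that carry the main observation are shown first. The motif of AP-1 is TGACTCA, read on either strand. It was found most often beside the summit of a member, not under it. Of the 6 members of highest fold enrichment with an AP-1 motif at 200 to 400 bp from the summits of both replicates, 5 are printed as 120 bp around the motif. Beside them stand 200 bp at the summit of the KCTD1 member, at the summit of the strongest member, in SLMAP, and at the summit of the ROBO1 member, which has an AP-1 motif within 100 bp of the summit of replicate 1, the summit of replicate 2 lying 237 bp from that of replicate 1. Capitals mark matches to this motif, to GGAATG, which is bound by TEAD factors, and to the RUNX motif, spelled TGTGGTT, in either direction. All sequences are the plus strand of Sscrofa11.1.
KCTD1 AP-1 site, chr6:111191797-111191916: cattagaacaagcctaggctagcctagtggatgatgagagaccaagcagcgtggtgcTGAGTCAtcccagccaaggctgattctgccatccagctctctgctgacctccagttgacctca
KCTD1 summit, chr6:111191431-111191630: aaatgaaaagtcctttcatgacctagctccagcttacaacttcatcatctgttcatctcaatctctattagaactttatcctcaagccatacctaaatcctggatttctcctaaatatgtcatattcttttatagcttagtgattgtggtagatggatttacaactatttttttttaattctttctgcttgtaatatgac
PI4K2A AP-1 site, chr14:109040139-109040258: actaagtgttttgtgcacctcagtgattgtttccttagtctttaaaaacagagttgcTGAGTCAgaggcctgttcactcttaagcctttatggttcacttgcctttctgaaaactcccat
ADCY8 AP-1 site, chr4:9829550-9829669: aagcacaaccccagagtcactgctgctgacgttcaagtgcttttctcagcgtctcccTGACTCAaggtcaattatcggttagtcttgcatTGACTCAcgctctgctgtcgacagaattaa
ABCC11 AP-1 site, chr6:36473725-36473844: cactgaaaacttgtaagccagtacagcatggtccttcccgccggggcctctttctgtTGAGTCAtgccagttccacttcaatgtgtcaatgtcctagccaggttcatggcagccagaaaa
AMPD3 AP-1 site, chr2:49046450-49046569: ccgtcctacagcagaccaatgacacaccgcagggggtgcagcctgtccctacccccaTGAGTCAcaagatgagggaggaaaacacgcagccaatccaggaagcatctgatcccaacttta
SLMAP summit, chr13:39676715-39676914: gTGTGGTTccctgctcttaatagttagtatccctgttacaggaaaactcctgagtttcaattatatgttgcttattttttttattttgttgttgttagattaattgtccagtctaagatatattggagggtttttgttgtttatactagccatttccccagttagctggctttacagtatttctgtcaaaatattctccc
ROBO1 summit, chr13:176052256-176052455: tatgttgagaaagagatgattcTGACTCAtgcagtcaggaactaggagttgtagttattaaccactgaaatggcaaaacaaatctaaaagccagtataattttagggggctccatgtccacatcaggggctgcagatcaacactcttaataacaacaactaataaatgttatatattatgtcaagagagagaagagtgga

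In the KCTD1 member the motif lay 326 and 327 bp from the summits of replicates 1 and 2, and the 200 bp at the summit held none of the 3 motifs. KCTD1 encodes a BTB-domain repressor of transcription. The member, chr6:111189921-111193448 in intron 1, had fold enrichments of 30.4 and 26.5 over the control. In PI4K2A, the gene of a phosphatidylinositol kinase, the motif lay 265 and 239 bp from the summits. In ADCY8, which encodes an adenylyl cyclase, it lay 332 and 307 bp away, and a second copy stood in the same 120 bp. In ABCC11, the gene of a membrane transporter, the distances were 292 and 273 bp. In AMPD3, the gene of an AMP deaminase, they were 281 and 280 bp. In all, 779 of the 6394 members had an AP-1 motif at 200 to 400 bp from both summits. This was not counted in the other classes, so the number alone does not set members apart, and the densities below give the comparison.

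Counted over all 6394 members, AP-1 motifs were denser at 200 to 400 bp from the summit than at the summit or farther out. There were 0.599 ± 0.00608 motifs per kb (SD, n = 2 replicates) at 200 to 400 bp on both sides, 0.301 ± 0.0127 within 100 bp and 0.162 ± 0.00636 at 800 to 1000 bp. The density at 200 to 400 bp was 3.56 and 3.82 times that at 800 to 1000 bp in replicates 1 and 2. The differences between these distances exceeded the spread between the replicates. Both values are for the same members, so here and in the motif shares below the SD covers the placement of the summit in either replicate. The same shape was seen in isolated intergenic peaks, with 0.756 ± 0.0151 per kb at 200 to 400 bp and 0.340 ± 0.0198 within 100 bp. It was also seen in clustered intragenic peaks, with 0.430 ± 0.0267 and 0.248 ± 0.0135, and over all shared peaks, with 0.494 ± 0.00983 and 0.213 ± 0.00209. The position beside the summit was thus shared by every class of H3K27ac peak examined, and the classes differed in density.

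**Figure D1:**
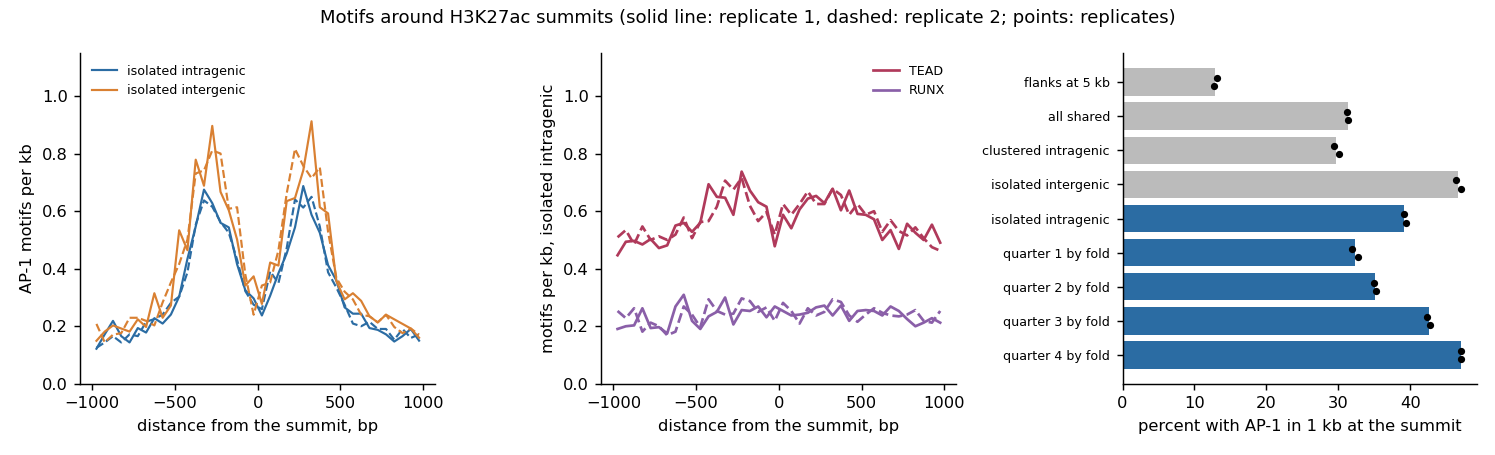
AP-1 motifs per kb in bins of 50 bp against distance from the summit in isolated intragenic and isolated intergenic peaks (left), TEAD and RUNX motifs per kb in isolated intragenic peaks (middle), and the percent of regions with an AP-1 motif in 1000 bp around the summit (right), for H3K27ac replicates 1 and 2. AP-1 peaks on both sides of the summit and is lower at the summit and beyond 800 bp, and the percent of members with AP-1 in 1000 bp rises from 32.3% in quartile 1 of fold enrichment to 47.0% in quartile 4, whereas in 200 bp at the summit, not plotted by quartile, it was 6.0% and 5.07%.

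Within 1000 bp around the summit, 39.1% and 39.4% of members held an AP-1 motif in replicates 1 and 2, or 2497 and 2520 members. The shares over all shared H3K27ac peaks were 31.2% and 31.4%. In windows of the same length 5 kb to either side of the members that overlapped no peak, they were 13.1% and 12.7%. Isolated intergenic peaks held it in 46.7% ± 0.378 (SD, n = 2) and clustered intragenic peaks in 29.7% ± 0.475. The members thus lay between these classes, with gaps larger than the spread between replicates. The members that were isolated from every shared peak held AP-1 in 43.4% ± 0.383, and the other members in 35.7% ± 0.802.

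The share of members with AP-1 in 1000 bp, a window chosen after the motif profile was seen, rose with the fold enrichment of the member. It was 32.3% ± 0.619 (SD, n = 2) in the quartile with the lowest value of the lower of both replicate fold enrichments, 35.1% ± 0.177 in quartile 2, 42.6% ± 0.178 in quartile 3 and 47.0% ± 0.0442 in quartile 4. In 200 bp at the summit there was no such rise, with 6.0% ± 0.442, 5.15% ± 0.662, 7.03% ± 0.621 and 5.07% ± 0.973 of members in quartiles 1 to 4. GC content of these windows rose from 43.2% to 45.3% between quartiles 1 and 4. Median peak width rose from 685 to 1687 bp in replicate 1 and from 662.5 to 1670 bp in replicate 2. The window of 1000 bp was thus longer than the median peak in quartile 1 and shorter than it in quartile 4. The part of GC content and of peak width in the difference was not tested. TEAD changed less, with 45.9% and 45.0% of members in quartile 1 and 47.0% and 47.8% in quartile 4 in replicates 1 and 2. AP-1 was less frequent in members in first introns, at 34.8% ± 0.816, than in members in other introns, at 40.9% ± 0.0156. In exons it was 35.8% ± 1.23. Members in genes with H3K4me3 at the start in both replicates held AP-1 in 38.6% ± 0.384, and members in other genes in 43.0% ± 0.567.

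Other motifs varied less with distance. TEAD had 0.656 ± 0.0105 motifs per kb at 200 to 400 bp and 0.505 ± 0.00553 at 800 to 1000 bp, a ratio of 1.3 in both replicates. RUNX had 0.261 ± 0.00359 and 0.224 ± 0.0135, with ratios of 1.21 and 1.13. Among the other motifs searched on either strand, leaving out NFI and HNF1, which were almost absent, the mean ratio lay between 0.850 for HNF4 (CAAAGTCCA), a motif of liver and gut factors, and 1.42 for CRE, the TGACGTCA motif of CREB factors. For AGATAA, bound by GATA factors of blood and endoderm, it was 0.982. MEF2 and NF-kB (GGAATTTCC) each had 1.41, from densities at 200 to 400 bp of 0.0403 ± 0.000553 and 0.0375 ± 0.00221 per kb. AP-1 had the highest mean ratio of the 18 motifs searched, at 3.70. A motif match is a run of letters and does not show that the factor bound there.

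In 200 bp at the summit alone, 5.68% and 5.94% of members held AP-1, against 4.09% and 4.04% over all shared peaks and 2.62% ± 0.0414 (SD, n = 2) in the windows 5 kb away. The GC box (GGGCGG), a motif of CpG-rich promoters, was found in 4.54% ± 0.221 of member summits and in 12.9% and 13.9% of all shared peaks. The dinucleotide CpG occurred a mean of 2.79 ± 0.184 times in 200 bp at member summits. The mean was 5.55 ± 0.293 over all shared peaks and 2.68 ± 0.00700 in the windows 5 kb away. GC content was 46.2% ± 0.745, between 42.5% ± 0.0508 in those windows and 50.6% ± 0.934 over all shared peaks. Of member summits, 25.2% ± 0.398 lay in repeats that the reference soft-masks, compared with 36.4% ± 0.0343 of the windows 5 kb away and 18.3% ± 0.348 of all shared peaks. Member summits were therefore closer to the neighbouring sequence than to all shared peaks in CpG and GC box content. Isolated intergenic and clustered intragenic peaks were alike in this, so it was not particular to the members. They held the GC box at 3.94% and 4.96% of summits, a mean of 2.40 and 2.93 CpG, and 46.0% and 46.9% GC. AP-1 was at 6.45% and 4.69% of their summits, and 23.6% and 23.9% of the summits lay in repeats. Promoter peaks, which the rule removed from the members, are part of all shared peaks.

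The members were low and narrow beside all shared H3K27ac peaks. Their median fold enrichment over the control was 4.0 and 4.16 in replicates 1 and 2, with a mean of 4.08 ± 0.112 (SD, n = 2). Over all shared peaks it was 5.55 and 6.02. The fold enrichment of members ranged from 1.91 to 44.2 in replicate 1 and from 1.99 to 59.3 in replicate 2. It exceeded 10 in 219 members (3.43%) in replicate 1 and 337 (5.27%) in replicate 2, and in 166 members in both, compared with 27.1% and 30.4% of all shared peaks. The peaks were called on these values, so they describe the members and were not tested. Isolated intergenic peaks had medians of 4.38 and 4.46, and clustered intragenic peaks 3.85 and 4.27, so the order of members and clustered peaks was not the same in both replicates.

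**Figure D2:**
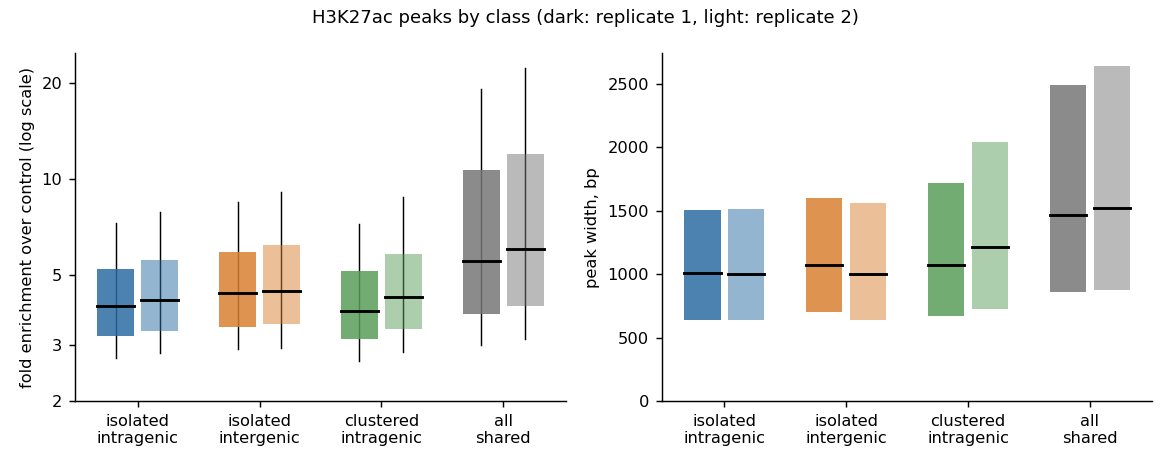
Fold enrichment over the control on a log scale (left) and peak width in bp (right) for isolated intragenic, isolated intergenic, clustered intragenic and all shared H3K27ac peaks in both replicates. Boxes span the lower to the upper quartile, black bars are medians and thin lines run from the lowest to the highest decile. Medians of the members, 4.0 and 4.16, lie below those of all shared peaks, 5.55 and 6.02.

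The median width of members was 1014.5 bp in replicate 1 and 1001.5 bp in replicate 2, compared with 1468 and 1522 bp over all shared peaks. It was 1072.5 and 1003.5 bp in isolated intergenic peaks and 1071 and 1218 bp in clustered intragenic peaks. Width increased with fold enrichment, from a median of 685 bp in quartile 1 to 1687 bp in quartile 4 in replicate 1. In replicate 2 it increased from 662.5 to 1670 bp. Spearman's rho between the fold enrichments of both replicates was 0.667 over the 6394 members, compared with 0.862 over the 64325 shared peaks, whose range was wider. It was 0.728 in isolated intergenic and 0.608 in clustered intragenic peaks. The members share their libraries, and rho is given as a description. The summits of both replicates lay a median of 147 bp apart, and 16.8% of members had them more than 500 bp apart. These values were 113 bp and 17.5% over all shared peaks, and 199 bp and 26.4% in clustered intragenic peaks. The deposited lists reach a q-value of 0.05, and 190 members (2.97%) in replicate 1 and 121 (1.89%) in replicate 2 had a q-value above 0.01, of which 11 did in both. The shares were 1.61% and 1.02% over all shared peaks, and 3.70% and 2.03% in clustered intragenic peaks.

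The strongest member, by the lower of its 2 fold enrichments, lay in intron 14 of SLMAP at chr13:39672143-39680167, with 44.2-fold and 36.9-fold enrichment. SLMAP encodes a membrane-anchored protein of the STRIPAK phosphatase complex. The next was in intron 6 of MAST4 at chr16:45294657-45298938, with 33.1-fold and 33.7-fold enrichment. MAST4 encodes a microtubule-associated kinase. In intron 1 of LARS, the gene of leucyl-tRNA synthetase, the member at chr2:147545692-147549248 had 26.6-fold and 34.2-fold enrichment. It lay 4.95 kb from the nearest gene start. After KCTD1 came intron 2 of ZFP1, a zinc finger gene, with 34.8-fold and 26.2-fold enrichment at chr6:12537797-12540147. In intron 14 of RGSL1, related to regulators of G-protein signalling, the values were 25.8 and 25.2 at chr9:123864733-123867134. These members were chosen for high fold enrichment in both replicates, so their distance from the medians of 4.0 and 4.16 follows from the choice.

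The next members were in genes of varied function. RASIP1, known for its part in endothelial lumen formation, held a member of 23.4-fold and 25.6-fold enrichment in intron 9 at chr6:54061676-54063097, and did not have an H3K4me3 peak at its start in both replicates. In intron 3 of KCTD16, which encodes a subunit of GABA-B receptors, the values were 23.3 and 23.6 at chr2:145931499-145934653. In intron 5 of WDR48, which encodes a partner of deubiquitinases, they were 23.2 and 24.2 at chr13:23751017-23754192. In intron 8 of RAD51B, a gene of homologous recombination, they were 27.3 and 22.4 at chr7:91935698-91953737. This last peak was 18040 bp wide in replicate 1 and 12778 bp in replicate 2, and was the widest member in replicate 1. Of these 10 members, those in MAST4, KCTD1, RGSL1 and KCTD16 were isolated from every shared peak, and the others had a shared peak at a promoter or under H3K4me3 or CTCF within 12500 bp.

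Nearly all members lay in introns. The summits of 5933 of 6394 members (92.8%) were intronic in each replicate, and introns made up 94.0% of the gene body that was open to members, defined as all protein-coding gene body more than 2.5 kb from every gene start (1081 Mb). The first intron of the longest transcript held 21.7% and 21.5% of member summits and 20.1% of this sequence. Coding exons held 2.47% and 2.46% of summits and 2.61% of the sequence. The 3′ UTRs held 3.53% and 3.19% of summits and 2.59% of the sequence. The 5′ UTRs held 0.813% and 0.97% of summits and 0.659% of the sequence, and non-coding exons 0.391% and 0.36% of summits and 0.169% of the sequence. The shares in introns and coding exons were thus near the length of these parts, and those in UTRs and non-coding exons were above it, from 226, 52 and 25 summits in 3′ UTRs, 5′ UTRs and non-coding exons in replicate 1. Among members isolated from every shared peak, 14.0% ± 0.215 (SD, n = 2) were in first introns.

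Along the gene, members were a median of 54.5 kb from the start of the gene that held them, and their density fell with distance from it. It was 7.84 members per Mb of open gene body within 10 kb of the start, 7.33 at 10 to 25 kb, 6.51 at 25 to 50 kb, 6.48 at 50 to 100 kb, 5.67 at 100 to 200 kb and 3.98 beyond 200 kb. This order near the start depended on what counts as isolation. These counts are of member-gene pairs, in which a member in 2 genes counts in each. Of the 859 pairs within 10 kb, 53 (6.17%) had a member isolated from every shared peak. The density of such pairs was 0.484 per Mb there, 2.31 at 10 to 25 kb, 3.66 at 50 to 100 kb and 2.42 beyond 200 kb. Along gene bodies divided into 10 equal parts, the density was 5.37 in the part nearest the start and between 5.65 and 6.29 in the others. Beyond the part nearest the start, the density followed no order along the body. Only genes longer than 200 kb reach the last distance class, and the part of gene length in the fall with distance was not tested.

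**Figure D3:**
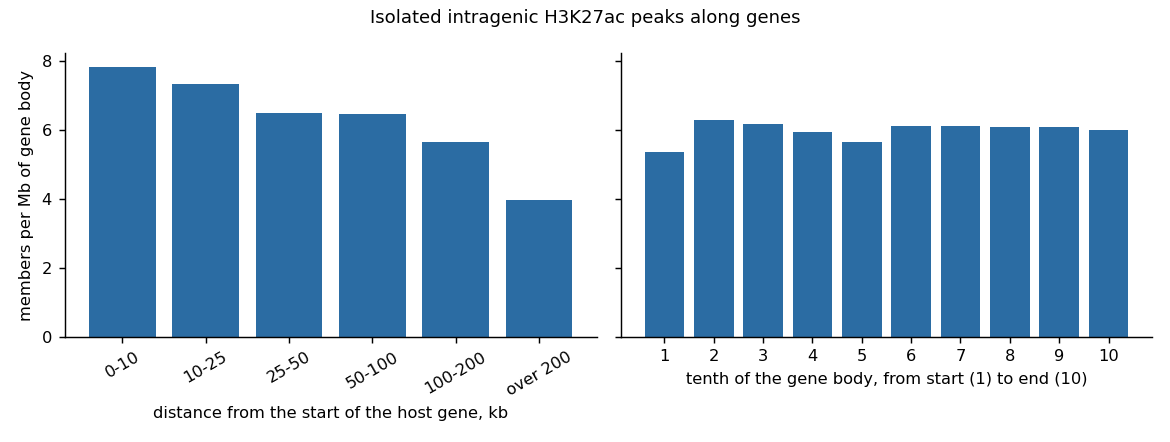
Members per Mb of gene body open to members by distance from the start of the host gene in kb (left) and by 10 equal parts of the gene body from start to end (right). The bars fall from 7.84 within 10 kb to 3.98 beyond 200 kb, and lie between 5.37 and 6.29 along the body.

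The 6394 members lay in 4106 of 19487 protein-coding genes (21.1%), and 95 of them lay in the bodies of 2 genes. One member was found in 2810 genes, 2 in 758 genes and 3 or more in 538 genes. Host genes were long, with a median length of 82.5 kb compared with 20.7 kb for all protein-coding genes. Of the host genes, 1277 (31.1%) also held a clustered intragenic peak. Another 1453 of the 19487 protein-coding genes held such a peak and no member, and these counts are not matched for gene length. An H3K4me3 peak lay within 1 kb of the start in both replicates for 3511 host genes (85.5%), whereas the share was 68.9% over all protein-coding genes. It was 86.2% for the 538 genes with 3 or more members. An H3K27ac peak lay there in both replicates for 80.2% of host genes and 60.7% of all protein-coding genes.

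Since host genes were long, members were also counted per Mb of open gene body. Genes with H3K4me3 at the start in both replicates held 6.50 members per Mb, and genes with it in neither replicate held 4.05. The ratio was 1.56 with H3K4me3 replicate 1 and 1.63 with replicate 2, or 1.59 ± 0.0464 (SD, n = 2). It was 1.95 ± 0.0169 for genes under 20 kb, 1.98 ± 0.0501 at 20 to 50 kb, 1.78 ± 0.0462 at 50 to 100 kb, 1.62 ± 0.0333 at 100 to 200 kb, 1.33 ± 0.0227 at 200 to 500 kb and 1.26 ± 0.136 above 500 kb. The ratio was above 1 in every length class with either replicate, and above 500 kb it was 1.16 and 1.35. Both values of a ratio rest on the same members and nearly the same genes, since 13563 and 13567 genes had the mark in replicates 1 and 2 and 13423 in both. The SD therefore covers only the genes classed differently and is no error of the member density. In genes with the mark in both replicates the density fell from 9.25 per Mb under 20 kb to 3.33 above 500 kb. In genes with it in neither it stayed between 4.35 and 4.62 up to 500 kb and was 2.61 above that. Clustered intragenic peaks differed between these classes of genes by more, with 11.8 and 5.67 per Mb.

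**Figure D4:**
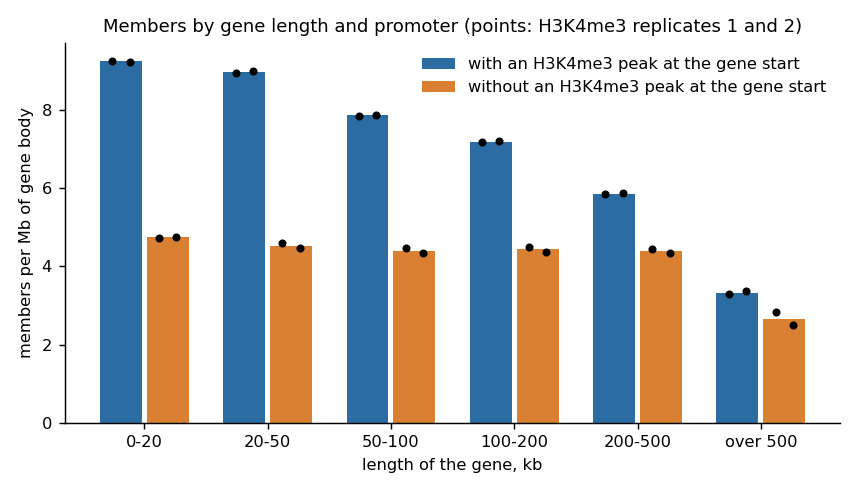
Members per Mb of gene body open to members by gene length, for genes with and without an H3K4me3 peak within 1 kb of their start. Bars are means over classes set by H3K4me3 replicate 1 and by replicate 2, and points are these 2 values. In every class both points with the mark lie above both points without it, and the gap narrows with length.

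The genes with most members were long. PRKG1, the gene of a cGMP-dependent kinase, held 12 members in 1235 kb, all in introns, with fold enrichments from 2.13 to 13.4 in replicate 1 and from 2.25 to 12.6 in replicate 2. DLG2, which encodes a scaffold protein of synapses, held 12 in 1971 kb. HDAC9, which encodes a class IIa histone deacetylase, held 11, and its start did not carry H3K4me3 in both replicates. NAALADL2, the gene of a peptidase-like protein, also held 11. The highest density among them was in ZNF609, a zinc finger gene of 245 kb, with 10 members or 42.2 per Mb of its open body and no clustered intragenic peak. NEDD4L, the gene of a ubiquitin ligase for ion channels, held 10 members at 27 per Mb. RBMS3, an RNA-binding protein gene, held 10 members beside 18 clustered peaks. SEC24D, which encodes a subunit of the COPII coat, held 9 beside 14 clustered peaks. GLIS3, the gene of a zinc finger transcription factor, held 9 beside 12. CDKAL1, which encodes a tRNA-modifying enzyme, held 9 beside 5. Genes with equal numbers were ordered by members per kb, so ROBO1, described later, also held 9 members and is not among these 10. The median fold enrichment per gene in these 10 genes ran from 3.61 to 4.70 in replicate 1 and from 3.11 to 5.12 in replicate 2. These values lay around the medians of 4.0 and 4.16 over all members.

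Genes of fibroblast functions were described with 5 lists. Of 41 matrix genes, which encode collagens, laminins and other proteins of the extracellular matrix, 19 held a member, at 7.58 members per Mb. Of 37 adhesion and cytoskeleton genes 20 did, at 5.03 per Mb. Of 33 genes of growth factor and TGF-beta signalling 17 did, at 7.15 per Mb. Of 51 transcription factor genes of mesenchymal cells 26 did, at 9.50 per Mb. Of all protein-coding genes, 21.1% held a member. The genes of every list were longer, with a median length of at least 92.1 kb compared with 20.7 kb, so densities are compared here. Density does not remove the difference in length, since it fell with gene length as given above. Among genes with H3K4me3 at the start in both replicates it was 7.89 per Mb at 50 to 100 kb. Among such genes it was 7.18 per Mb at 100 to 200 kb and 3.33 above 500 kb. The density over all protein-coding genes, which are not matched to the lists for length, was 6.0 per Mb. For the 35 synaptic and neuronal genes, whose median length was 812 kb, it was 1.46 per Mb, and 18 held a member.

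Clustered intragenic peaks separated these lists more widely than members did. Their density was 47.7 per Mb in matrix genes, 37.9 in adhesion and cytoskeleton genes, 31.0 in growth factor genes, 26.6 in transcription factor genes, 1.33 in synaptic genes and 10.6 over all protein-coding genes. In matrix genes they were thus 4.51 times as dense as over all genes, whereas members were 1.26 times as dense. Neither ratio is matched for gene length. A peak with a neighbour within 12500 bp is no member, so genes rich in such peaks leave less of their body to members. Counts in a list are few, and each list holds genes of unequal length.

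**Figure D5:**
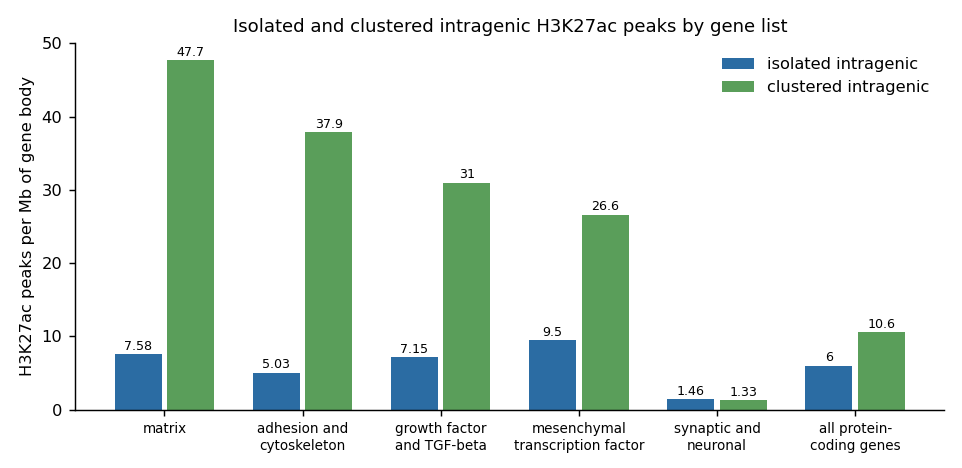
H3K27ac peaks per Mb of gene body open to members, isolated intragenic and clustered intragenic, for 5 lists of genes and all protein-coding genes. Isolated peaks lie between 1.46 and 9.50 per Mb and clustered peaks between 1.33 and 47.7 per Mb.

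Among matrix genes, COL5A2, the gene of a fibrillar collagen chain, held 4 members beside 23 clustered peaks. LAMC1, which encodes a laminin chain, held 4 members and no clustered peak. COL4A2, the gene of a basement membrane collagen chain, held 3 members. The best member of COL5A2 (chr15:93797217-93798187) had 5.87-fold and 5.87-fold enrichment, above the upper quartiles of members of 5.24 and 5.57. The best had 4.57-fold and 3.95-fold enrichment in LAMC1, and 4.94-fold and 4.54-fold in COL4A2, nearer the member medians of 4.0 and 4.16. Among adhesion genes, CDH13, which encodes T-cadherin, held 4 members, the best of them in intron 1 with 10.3-fold and 8.14-fold enrichment at chr6:5621180-5623682. MYH10, a non-muscle myosin gene, held 3, the best with its summit in a coding exon at 6.35-fold and 9.60-fold. LPP, the gene of a focal adhesion protein, held 3 members beside 43 clustered peaks.

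In the growth factor list, IGF1R, the receptor of insulin-like growth factors, held 5 members, the best at chr1:137527196-137529878 with 6.96-fold and 8.85-fold enrichment. BMPR2, a receptor of bone morphogenetic proteins, held 4, the best with 8.50-fold and 7.80-fold. LTBP1, which binds latent TGF-beta in the matrix, held 4 beside 18 clustered peaks. In the transcription factor list, FOXP1, of the forkhead family, and TCF4, of the bHLH family, held 8 members each. The best FOXP1 member had 4.45-fold enrichment in replicate 1 and 19.9-fold in replicate 2, where the overlapping peak was 8682 bp wide with its summit 6692 bp away, so the value in replicate 2 belongs to another position. TCF12, of the bHLH family, held 6, the best with 4.89-fold and 7.18-fold enrichment.

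Members were also found in genes best known from neurons. ROBO1, which encodes a receptor for SLIT guidance proteins, held 9 members beside 14 clustered peaks in 1131 kb. Its best member, whose summit sequence with AP-1 is printed above, had 5.08-fold and 7.14-fold enrichment. SYT1, the calcium sensor of synaptic vesicles, held 7 members and no clustered peak, the best with 6.12-fold and 5.50-fold enrichment. CACNA1C, the pore subunit of an L-type calcium channel, held 5 members, the best with 20.4-fold and 21.2-fold enrichment in intron 4 at chr5:69158780-69163857. All 3 genes had H3K4me3 at the start in both replicates, as did 26 of the 35 genes of this list (74.3%) and 68.9% of all protein-coding genes.

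The other marks lay kilobases from the members. The nearest H3K4me3 peak was a median of 15.1 kb away in replicate 1 and 11.8 kb in replicate 2. The nearest CTCF peak was a median of 16.4 and 14.7 kb away. The nearest other H3K27ac peak of the same replicate, of any kind, was 7.66 and 7.11 kb away, and 39.6% and 41.6% of members had one within 5 kb. Around isolated intergenic peaks these medians were 17.5 and 12.6 kb, 18.7 and 15.9 kb, and 9.29 and 9.49 kb. The rule sets a lower limit to some of these distances, so they are a description.

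Members were sparser on chromosome X than on any autosome. It held 128 members, or 2.78 per Mb of open gene body, whereas the autosomes ranged from 5.13 on chromosome 18 to 6.92 on chromosome 4. Isolated intergenic peaks, at 0.873 per Mb of chromosome, and all shared peaks, at 10.5 per Mb, were also lowest on X, where the autosomes had 1.2 to 2.01 and 19.6 to 44.3. The median fold enrichment of members on X was 4.02 and 4.29, close to the medians over all members. The labels do not give the number of X chromosomes in these cells, and its part in the count was not tested.

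At the limits of the rule, the member nearest a gene start lay 2501 bp away, in NDP, and the excluded peak nearest the limit lay 2496 bp away, in POLDIP3. The member with the closest neighbour of its kind lay 12502 bp from it, in PHF3, and the excluded peak nearest that limit lay 12487 bp from its neighbour, in SPATA17. The 442 members between 2.5 and 5 kb from a gene start had median fold enrichments of 3.88 and 4.25, and the 477 excluded intragenic peaks within 2.5 kb had 3.93 and 4.51.

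The 6 lists held between 37932 and 81164 peaks and give no read counts, so the depth behind each peak is unknown. Markers of fibroblasts had H3K4me3 and H3K27ac within 1 kb of the start in both replicates at 12 of 12 genes. H3K4me3 in both replicates was also found at 7 of 7 epithelial, 1 of 7 blood, 1 of 6 endothelial, 2 of 5 muscle and 4 of 5 neuron markers, so this mark did not separate fibroblast from epithelial markers. H3K27ac in both replicates was found at 1 of 7 epithelial, 1 of 7 blood, 0 of 6 endothelial, 1 of 5 muscle and 1 of 5 neuron markers. Members lay in 0 of 12 fibroblast, 1 of 7 epithelial and 2 of 7 blood markers. They lay in 2 of 6 endothelial, 0 of 5 muscle and 1 of 5 neuron markers. The share over all protein-coding genes was 21.1%, and these few marker genes are not matched for length. With 2 replicates, an exact two-sided permutation test of 2 against 2 values cannot give a p below 0.333, so differences are set against the replicate SD only. Many members are not many replicates, since all come from the same libraries.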

How the data were processed

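ChIP-seq peak lists of H3K4me3, H3K27ac and CTCF in PEFs, 2 replicates each, were used as the authors deposited them. The authors mapped reads to Sscrofa11.1 with Bowtie2 and called narrow peaks against a control with MACS2 in each library separately. Versions are not given in the sources used here. Each deposited line gives positions, a summit offset, the fold enrichment, which is a ratio of the signal to the control, the p-value and the q-value on a −log10 scale, and a score that was not used. The authors state a q-value of 0.01, whereas the deposited q-values reach 0.05. Input libraries were not analysed here.

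Members were found by the conditions given with the results, with overlap of at least 1 bp, distances between edges, and gene starts from the RefSeq annotation of Sscrofa11.1 (release 106, 28077 genes). "Such" a neighbour was read as a shared H3K27ac peak that meets all earlier conditions. Each member took the overlapping replicate 2 peak of highest fold enrichment, and 209 members overlapped more than 1. Introns were the parts of protein-coding gene bodies outside the exons of every transcript. First introns and intron numbers were those of the transcript of longest span. Open gene body lies over 2.5 kb from every gene start. Motifs were searched on both strands around the summits of each replicate. Windows 5 kb away were kept where they overlapped no peak.

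Named are the 10 members highest by the lower fold enrichment, the 10 genes with most members (ties by members per kb), the 3 genes with most members in each list, peaks at the limits, and, chosen after the values were seen, 6 members with AP-1 at 200 to 400 bp, of which 1 is not reported here. That distance and the window of 1000 bp were also chosen after the motif profile was seen. The members, gene lists and motifs were chosen with earlier results of these data known. COL6A1 and COL6A2 were not analysed here. Results are shown for each replicate or as a mean with SD (n = 2), without a test. Overlap, distance, isolation and motif search were tested on simulated data. Alternatives changed the reference replicate, q-value, overlap, distances, gene starts, exclusion peaks, windows and replicates. Python 3.11.15, pandas 2.3.3, numpy 2.4.6, scipy 1.17.1 and pysam 0.24.0 were used.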

Additional observations from a re-analysis of the deposited data

How the results depend on the processing

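No paired analysis was possible because the values come from no test between groups. The number of members was 3959 with isolation of 25 kb and 2957 where any shared peak ended isolation. Under these rules in the same order, 91.9% and 94.2% were in introns, 22.3% and 14.0% in first introns, AP-1 was at 6.34% and 6.04% of summits, 25.7% and 26.8% were in repeats, and the density ratio was 1.5 and 1.52. Any shared peak ending isolation gave a median width of 995 bp, 84.8% of host genes with H3K4me3 and 44.9% GC, and isolation of 25 kb a width of 988 bp.

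With −log10 q of at least 5, the values were 93.0% in introns, 22.0% in first introns, a fold enrichment of 5.07, a width of 1375 bp, 86.4% of host genes and a ratio of 1.67. With 50% overlap they were 93.2%, 21.3%, 4.29 and 1096 bp. With gene starts over 5 kb away, 93.2% were in introns, 20.3% in first introns, and 85.9% of host genes had H3K4me3. With every transcript start and with replicate 2 as reference, 93.4% and 92.7% were in introns. Where only reproducible peaks excluded, the values were 92.7%, 21.9%, a fold enrichment of 4.24, 1070 bp, 84.9% of host genes, a ratio of 1.54, 5.46% with AP-1 and 24.6% in repeats. A promoter window of 2.5 kb gave 87.6% of host genes, and any transcript start gave 91.0% and a ratio of 1.82. AP-1 was found in 2.49%, 19% and 39.2% of windows of 100, 500 and 1000 bp, of which the last was chosen after seeing the data. GC was 45.1% and 44.2% in 500 and 1000 bp, and repeats made up 26.9% of 1000 bp.

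With 1 library left out, members ranged from 6399 to 6996, introns from 92.5% to 92.9%, first introns from 21.0% to 22.2%, fold enrichment from 3.59 to 4.21, width from 726 to 1057 bp, host genes with H3K4me3 from 84.8% to 86.0%, the ratio from 1.52 to 1.6, AP-1 from 5.53% to 6.16%, repeats from 24.8% to 25.5% and GC from 45.2% to 46.8%. The narrowest and weakest sets came from 1 H3K27ac replicate alone. The density ratio stayed above 1 in every alternative run. The lists hold no reads, so the precision of a single peak is unknown. The causes of these shifts were not tested.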
